A study of Mus musculus with 4 samples.

Results

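Malat1, Neat1 and the genes of 4 nuclear RNA-binding proteins, Sfpq, Nono, Pspc1 and Matr3, were followed through an RNA immunoprecipitation (RIP-seq) experiment in which Flag-tagged Lin28b was pulled down with an anti-Flag antibody. The 6 genes were taken by symbol and joined between the wild-type and the mutant table by gene identifier. All 6 were found, among 13478 genes listed in both tables, and no filter on low values removed any. There were 4 libraries from a mouse line labelled as pancreatic cancer-associated fibroblasts (CAFs), the stromal fibroblasts of a pancreatic tumour. The cells overexpressed Flag-tagged Lin28b either as the wild type (Lin28b-WT) or as a mutant described as deficient in RNA binding (Lin28b-MU). Each construct had 1 immunoprecipitate (IP) and 1 input library. No genotype, age, treatment or time is given in the labels beyond the construct, and the residues changed with the mutant are not named there. All 4 libraries share the line and the overexpression, and there was no library of cells without a Flag construct. With 1 library a group no difference has a replicate check, no test was possible, and every comparison below describes single libraries.

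Malat1 and Neat1 are long noncoding RNAs made from neighbouring genes and retained in the nucleus. Malat1 gathers at nuclear speckles, which are stores of splicing factors. The long form of Neat1 is the scaffold of paraspeckles, bodies in which Sfpq, Nono and Pspc1, the DBHS family of RNA-binding proteins, coat the RNA and hold other proteins and edited RNAs. Matr3 (matrin 3) is a nuclear matrix protein that binds RNA and is known to associate with Sfpq and Nono. Lin28b binds the precursors of let-7 microRNAs and many mRNAs. The RNA measured for the 4 protein genes is their mRNA, so the values say nothing about the proteins or about the bodies they form.

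The line was checked against cell type markers. Of 15 fibroblast markers 7 were listed in both tables, with summed input levels of 825 FPKM with the wild type and 708 with the mutant (FPKM, a level scaled to RNA length and library size, was read from the values, since the tables name no unit). Vim, the intermediate filament gene, made up 607 and 547 of those sums, and the matrix protein genes Fn1 (118 and 74.6) and Sparc (93.8 and 83.8) were abundant too. The other listed markers were low. The collagen genes Col6a1 and Col1a1 stood at 4.56 and 0.722 with the wild type and 0.747 and 0.404 with the mutant, and Pdgfra, for a growth factor receptor of fibroblasts, at 1.33 and 0.860. Acta2, which encodes an actin of contractile cells, was at 0.227 and 0.524. Both tables listed 7 of 11 epithelial markers, with summed levels of 2046 and 1382. The keratin gene Krt19 stood at 665 and 322, Krt8 at 601 and 494, and the E-cadherin gene Cdh1 at 219 and 114. The gaps were wider for the mucin gene Muc1 (134 and 6.77) and for Krt7 (31.7 and 3.32), whereas Krt18 (395 and 441) and Grhl2 (0.274 and 1.47) were higher in the mutant input. Of 6 leukocyte markers 1 was listed in both, and of 4 endothelial markers 0. For Lin28b itself the inputs gave 13.8 (wild type) and 30.0 (mutant). The part of these differences in the results below was not tested. These are bulk libraries, in which fewer cells expressing a gene and less RNA per cell cannot be told apart.

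Before any pull-down, Malat1 was by far the most abundant of the 6 RNAs per unit length. Its input level was 332 FPKM (wild type) and 273 (mutant), rank 114 of 14755 genes and rank 138 of 14427. It was the highest of 29 genes of the lincRNA class with a level of at least 10 in some library. Nono followed at 137 and 110.1, then Sfpq at 72.2 and 79.0. Neat1 stood at 27.6 and 37.9, beside Matr3 at 27.5 and 38.4. Neat1 and Matr3 could not be ordered, since their levels differed by less than 2% in either input. Pspc1 was the lowest, at 7.70 and 10.0. No spread between replicates is available to judge the other steps of this order, which was the same in both inputs down to the pair of Neat1 and Matr3. Within the DBHS family, Nono mRNA exceeded Pspc1 mRNA 17.8-fold in the wild-type input, and the excess in the mutant input was 11.0-fold. Between the inputs no member differed by more than 1.39-fold, the value for Matr3, although the tables were normalised separately.

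In the wild-type IP, the mRNA of Matr3 was the member recovered above its input, Malat1, Sfpq and Nono were recovered in proportion to input, and Neat1 and Pspc1 lay somewhat below. A gene was called past the threshold where IP and input differed by at least 2-fold on log2 of the level plus a pseudocount of 0.01. By that rule 1 of 6 members was higher in the wild-type IP, where 8.59% of all genes of the table were, and 0 of 6 were lower, against 23.3% of all genes. The median log2 ratio of the 6 was −0.11, beside −0.28 for all genes in both tables. In the mutant IP, 0 of 6 were higher (6.69% of all genes) and 2 of 6, Malat1 and Neat1, were lower (37.8% of all genes), with a median of −0.73 beside −0.59. The share of lower members with the mutant was thus close to that of all genes. After centring each table on its own median, the shares of all genes past the threshold became 14.3% higher and 15.8% lower with the wild type and 17.8% and 23.5% with the mutant, and Neat1 no longer passed with the mutant.

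**Figure D1:**
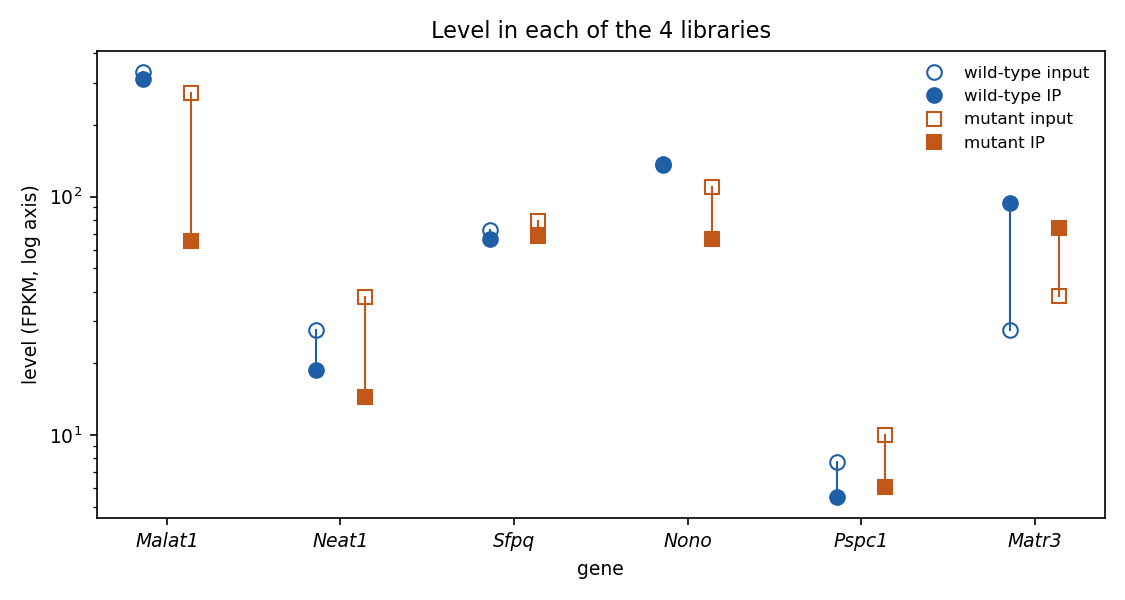
Level of each of the 6 RNAs in FPKM (log axis) in the wild-type input and IP (open and filled circles) and the mutant input and IP (open and filled squares), 1 library each, so there are no error bars; a line joins the IP to its own input. Matr3 lies higher in the IP than in the input for both constructs, Malat1 drops from 273 to 65.1 FPKM with the mutant, and for Nono the wild-type input (137) is hidden behind the IP (136).

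Malat1 (ENSMUSG00000092341) lies on the minus strand of chromosome 19 at chr19:5795690-5802672 in GRCm38, a span of 6.98 kb that the mutant table classes as lincRNA. It stood at 309 FPKM in the wild-type IP and 332 in its input, and at 65.1 in the mutant IP and 273 in its input. The inputs and the wild-type IP were thus alike in level and the mutant IP stood apart. The levels of all genes sum to 207301 in the mutant IP and 313359 in its input. With the wild type they sum to 286718 and 321238. Levels set side by side across the separately normalised tables, here and below, include this gap. The log2 ratio of IP over input was −0.10 with the wild type and −2.07 with the mutant, where the level in the IP was 4.19-fold lower. The ratios differed by 1.96 on the log2 scale, or 3.90-fold, and by 1.65 after centring. Malat1 was the 1 member of 6 whose ratios differed by at least 1 in favour of the wild type, which 26.1% of all genes did, and 0 of 6 differed as much in favour of the mutant (7.37% of all genes). Of 366 genes of the lincRNA class, 160 differed by at least 1 in favour of the wild type, and the median difference of the class was 0.73. In all, 1326 of the 13478 genes had a larger difference than Malat1. In the mutant IP it fell to rank 574 of 14427 genes, from rank 138 in the input, and it was second among the 29 lincRNAs there.

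Genes like Malat1 in genomic span and in input levels showed differences of the same order. Span counts introns, so the lengths of the RNAs were not matched, here or below. In both tables there were 83 other genes within 2-fold of the span of Malat1 and of each of its input levels. Their median log2 ratio was −0.58 with the wild type and −1.92 with the mutant, with a median difference of 1.22. Malat1 lay above 56 of the 83 with the wild type and above 36 of the 83 with the mutant. Its difference exceeded that of 63 of them. The genes with the most similar profile over the 4 libraries, by Euclidean distance between log2 levels centred on each gene's mean, were Rps9, which encodes a ribosomal protein, Id2, which encodes an inhibitor of DNA-binding factors, and Ostc, which encodes a subunit of the oligosaccharyltransferase complex, at distances of 0.071, 0.084 and 0.090. The median distance over 7139 genes was 1.80. The nearest genes were picked for small distances, so their gap to the median follows from the choice, also for Neat1 below. Rps9, for example, had log2 ratios of −0.17 and −2.03. All 3 are protein-coding genes.

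Neat1 (ENSMUSG00000092274) lies on the same strand 22.0 kb upstream of Malat1, at chr19:5824708-5845478, a span of 20.8 kb. It stood at 18.7 FPKM in the wild-type IP and 27.6 in its input, and at 14.5 in the mutant IP and 37.9 in its input. Both IPs were below both inputs. The log2 ratio was −0.56 with the wild type, short of the threshold, and −1.39 with the mutant, where the IP was 2.62-fold lower. The mutant value became −0.78 after centring. The ratios differed by 0.83, within the threshold of 1. Among 1140 genes of like span and input levels the median log2 ratios were −0.25 and −0.60, and Neat1 lay above 363 of them with the wild type and above 208 with the mutant. The 3 most similar profiles were those of Acaa2, which encodes a mitochondrial thiolase, and of Mrps9 and Mrps7, which encode mitochondrial ribosomal proteins, at distances of 0.050, 0.068 and 0.072 against a median of 1.22.

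The 2 noncoding RNAs kept unlike proportions in the 4 libraries. Per unit length Malat1 stood 12.1-fold above Neat1 in the wild-type input and 16.6-fold above it in the wild-type IP. In the mutant the excess was 7.20-fold in the input and 4.50-fold in the IP. Frmd8os, a gene on the opposite strand that begins 144 bases upstream of Neat1, reached at most 0.595 FPKM and was listed at 0 in the mutant IP. Of 366 lincRNA genes in both tables, 57.4% were at least 2-fold lower in the mutant IP, with a median log2 ratio of −1.15, and −0.31 with the wild type. Malat1 and Neat1 ranked 13th and 19th of the 29 lincRNAs with a level of at least 10 by wild-type ratio, and 19th and 17th by mutant ratio.

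Sfpq, Nono and Pspc1, whose proteins form the dimers that build paraspeckles, did not pass the 2-fold threshold in either IP. Sfpq (ENSMUSG00000028820, chr4:127021324-127037013, plus strand) stood at 66.6 FPKM in the wild-type IP and 72.2 in its input, and at 68.6 in the mutant IP and 79.0 in its input. All 4 libraries lay within 1.19-fold of each other, the narrowest range of the members. Its log2 ratios were −0.12 and −0.20, and their difference of 0.09 turned to −0.22 after centring. Among 504 genes of like span and level the median log2 ratios were −0.33 and −0.87. Sfpq lay above 315 of them with the wild type and above 385 with the mutant. The difference of Sfpq lay below that of 365 of the 504, whose median difference was 0.58.

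Nono (ENSMUSG00000031311, chrX:101429318-101448591, plus strand) stood at 136 FPKM in the wild-type IP and 137 in its input, and at 66.2 in the mutant IP and 110.1 in its input. The mutant IP was the lowest of the 4 libraries. Its log2 ratios were −0.02 and −0.73, which are near the medians of −0.14 and −0.78 over 244 genes of like span and level. The difference of 0.72 is also near their median of 0.67. In the inputs Nono mRNA stood above Sfpq mRNA, 1.90-fold with the wild type and 1.39-fold with the mutant, and in the mutant IP it was 0.965 times the level of Sfpq.

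Pspc1 (ENSMUSG00000021938, chr14:56720710-56778316, minus strand) has the longest span of the 6, at 57.6 kb, and the lowest level. It stood at 5.54 FPKM in the wild-type IP and 7.70 in its input, and at 6.09 in the mutant IP and 10.0 in its input. Both IPs lay below both inputs, with log2 ratios of −0.48 and −0.72 and a difference of 0.24, which became −0.07 after centring. Genes of like span and level were recovered more, with medians of 0.09 and 0.01 over 1258 genes. Pspc1 lay above 255 of them with the wild type and above 225 with the mutant.

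Matr3 (ENSMUSG00000037236, chr18:35562138-35593835, plus strand, 31.7 kb) was the member with the strongest recovery in both IPs. It stood at 94.0 FPKM in the wild-type IP and 27.5 in its input, and at 73.9 in the mutant IP and 38.4 in its input. Both IPs lay above both inputs. The log2 ratio was 1.77 with the wild type, a 3.41-fold enrichment, and 0.95 with the mutant, a 1.93-fold enrichment just short of the threshold; the mutant value became 1.55 after centring. Of all genes in both tables, 97.9% had a lower ratio with the wild type and 93.3% had a lower ratio with the mutant. Among 1142 genes of like span and input levels, 6 had a higher ratio with the wild type and 46 with the mutant, and the medians were −0.06 and −0.35. The difference of 0.82 between the constructs exceeded that of 878 of the 1142. Against Neat1, which had nearly the same level in each input, Matr3 stood 5.03-fold higher in the IP of the wild type and 5.11-fold higher in that of the mutant.

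The recovery of Matr3 was not shared by the genes around it. Paip2, which encodes a regulator of poly(A)-binding protein and lies 4.78 kb downstream on the same strand, had log2 ratios of −0.29 with the wild type and −1.94 with the mutant. The shorter gene model of the small nucleolar RNA host Snhg4, 3.82 kb upstream, had −0.64 and −2.48. A longer Snhg4 model overlaps Matr3 on the same strand and stood between 0.703 and 3.87 FPKM in the 4 libraries. Its reads and those of Matr3 may be shared, so a part of either level is uncertain.

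**Figure D2:**
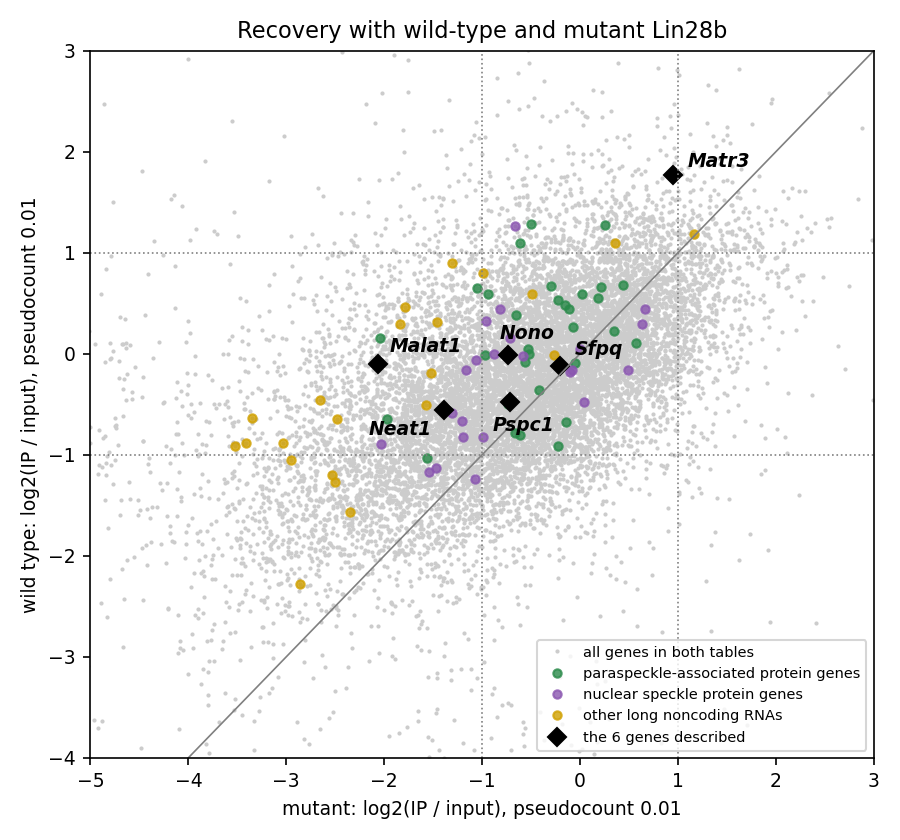
Log2 ratio of IP over input with wild-type Lin28b (vertical) against that with the mutant (horizontal), pseudocount 0.01, for all genes in both tables (grey; 616 genes lie outside the plotted range), 3 gene lists and the 6 genes described (black diamonds). Dotted lines mark 2-fold and the diagonal marks equal ratios. Matr3 stands at the upper right with 1.77 and 0.95, and Malat1 lies far above the diagonal with −0.10 and −2.07.

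All 6 members lay above the diagonal, where the wild-type ratio exceeds the mutant ratio, but the whole cloud is shifted that way. The median difference over all genes was 0.32, and after centring 4 of 6 members, Malat1, Neat1, Nono and Matr3, kept a higher wild-type ratio. In the authors' deposited table the q-values of the members were below 0.05 in both comparisons, including Nono with the wild type, where the levels were 136 and 137 FPKM and the q-value was 0.000897. Such a value compares the reads of 2 libraries. The authors' deposited table for the mutant marks 862 genes as up, none of them a member.

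**Figure D3:**
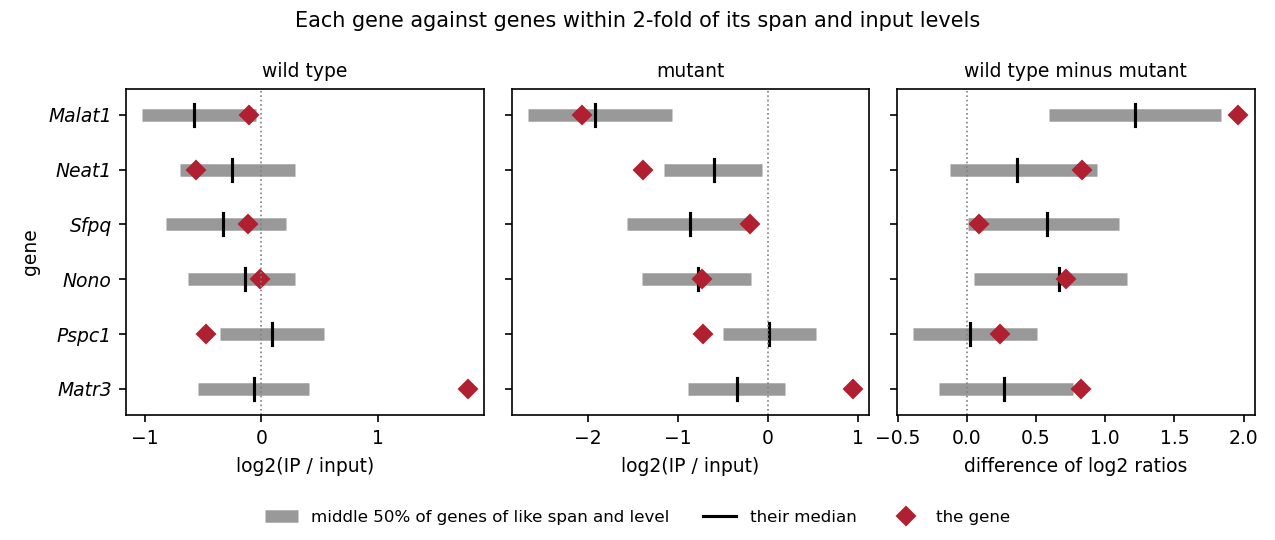
Log2 ratio of IP over input with the wild type and the mutant, and their difference, for each of the 6 genes (red diamonds), beside the median (black) and the middle 50% (grey bars) of all other genes within 2-fold of its span and of both its input levels. Matr3 lies outside the grey bar in all 3 panels, Malat1 lies inside it with the mutant, and Pspc1 lies below it in both IPs.

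The authors' peak lists give positions along the RNAs. Whether the input was the control of the peak calls is not stated, so a peak may mark signal within the IP alone. A peak was given to a member where its summit lay inside the gene span on the gene's strand. By this rule 5 of 6 members held a peak of the wild-type list, against 25.1% of all genes, and 2 of 6 held a mutant peak, against 18.6%. Malat1, Neat1 and Nono held wild-type peaks and no mutant peak, as 12.1% of all genes did, and 0 of 6 held a mutant peak alone (5.57% of all genes). Among the 366 genes of the lincRNA class, 6.01% held a wild-type peak and 4.1% a mutant peak. Of the 20 wild-type peaks in members, 8 overlapped a mutant peak by at least 1 base (40.0%, beside 49.6% over the list). All 8 mutant peaks in members overlapped a wild-type peak, beside 36.2% over that list. In each list 7 of the 8 overlapping peaks lay in Matr3 and 1 in Sfpq, so these shares mostly describe Matr3. Holding a peak depends on level and span. Among genes like Malat1 in both, 31.3% held a wild-type peak and 4.82% a mutant peak, and among genes like Matr3 the shares were 47.0% and 33.2%. For genes like Neat1, Sfpq and Nono the wild-type shares were 38.0%, 35.9% and 50.4%, and the mutant shares 22.8%, 19.2% and 26.6%. Each fold given here is the authors' value at the summit and is read within its list alone. Exons and untranslated regions were not assigned.

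Malat1 held 4 wild-type peaks that covered 1475 bases, 21.1% of the gene. Their summits lay 415, 3416, 4409 and 5465 bases from the 5′ end. All had low folds, of 1.15, 1.57, 2.52 and 1.95 in that order, beside a median of 3.77 over the list. The strongest by the authors' p-value was the third (chr19:5798166-5798419), at rank 187 of 11912 by p-value but rank 9288 by fold. The weakest was the peak nearest the 5′ end (chr19:5802257-5802561), at rank 11907 by fold, near the foot of the list. The high rank by p-value and the low rank by fold stand together in an RNA of 332 FPKM in the input. The 3′ end of the gene gives rise to mascRNA, a small tRNA-like RNA. RefSeq places it at chr19:5795924-5795981 (58 bases), and the nearest peak began 1.14 kb away from it.

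Neat1 held 2 wild-type peaks of 284 and 308 bases, which covered 2.85% of its span. They lay close together, with summits 8114 and 8866 bases from the 5′ end (chr19:5837266-5837549 and chr19:5836479-5836786), and their folds were 2.68 and 2.84. By p-value they ranked 10334 and 10387 of 11912. Neat1 has a short form, made of the 5′ part of the gene, and a long form that runs its length. The gene tables give 1 level for both forms, so these were not told apart.

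Nono held 3 wild-type peaks. The strongest by p-value lay near the middle of the gene (chrX:101439332-101439535, summit 10151 bases from the 5′ end, fold 2.92), and the others lay at 97.3% and 98.9% of the span, with folds of 2.31 and 2.86. Its gene-level ratio was nevertheless −0.02 with the wild type, so the peaks mark positions within an RNA that was not recovered above its input as a whole. Sfpq held 2 wild-type peaks, with summits 5943 and 9128 bases from the 5′ end and folds of 1.84 and 2.70. The second overlapped the 1 mutant peak of the gene (chr4:127030388-127030609, fold 1.88), and their summits were 91 bases apart. By p-value this pair ranked 5645 of 11912 and 13462 of 15931. Pspc1 held no peak in either list, where 43.6% and 40.0% of genes of like span and level held one.

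Matr3 held 9 wild-type peaks and 7 mutant peaks. At least 9 wild-type peaks were found in 1.85% of genes in both tables, and at least 7 mutant peaks in 5.05%. The wild-type peaks covered 4463 bases, 14.1% of the span, and the mutant peaks 3586 bases, 11.3%. All 7 mutant peaks overlapped a wild-type peak, and the paired summits lay 1 to 42 bases apart, with a median of 7. In both lists the strongest by p-value was the last, of 1205 bases with the wild type and 1197 with the mutant, with its summit 28261 and 28248 bases from the 5′ end. It ranked 80 of 11912 in the wild-type list, with a fold of 11.6, and 738 of 15931 in the mutant list, with a fold of 5.49. Next in the wild-type list by p-value came the first peak of the gene, 10384 bases from the 5′ end, with a fold of 3.79. The 2 wild-type peaks without a mutant counterpart had summits 15292 and 16192 bases from the 5′ end and folds of 4.70 and 8.06. Of all the Matr3 peaks, 8 wild-type and 6 mutant ones have their summits inside the longer Snhg4 model as well. The last Matr3 peak of each list lies beyond that model.

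On the opposite strand, 2 wild-type peaks and 1 mutant peak lay inside Matr3, and none inside the other 5 members. The wild-type peaks were 10505 and 17280 bases from the 5′ end of Matr3, with folds of 5.48 and 5.91, and the mutant peak was at 26354 bases with a fold of 6.23. The wild-type and mutant positions did not coincide. The wild-type peak at 10505 bases lies wholly inside the first wild-type peak on the strand of Matr3, described above. Whether it marks a separate RNA was not tested. The mutant peak lies in the span of the predicted gene Gm50163, which stood between 0.682 and 1.44 FPKM.

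**Figure D4:**
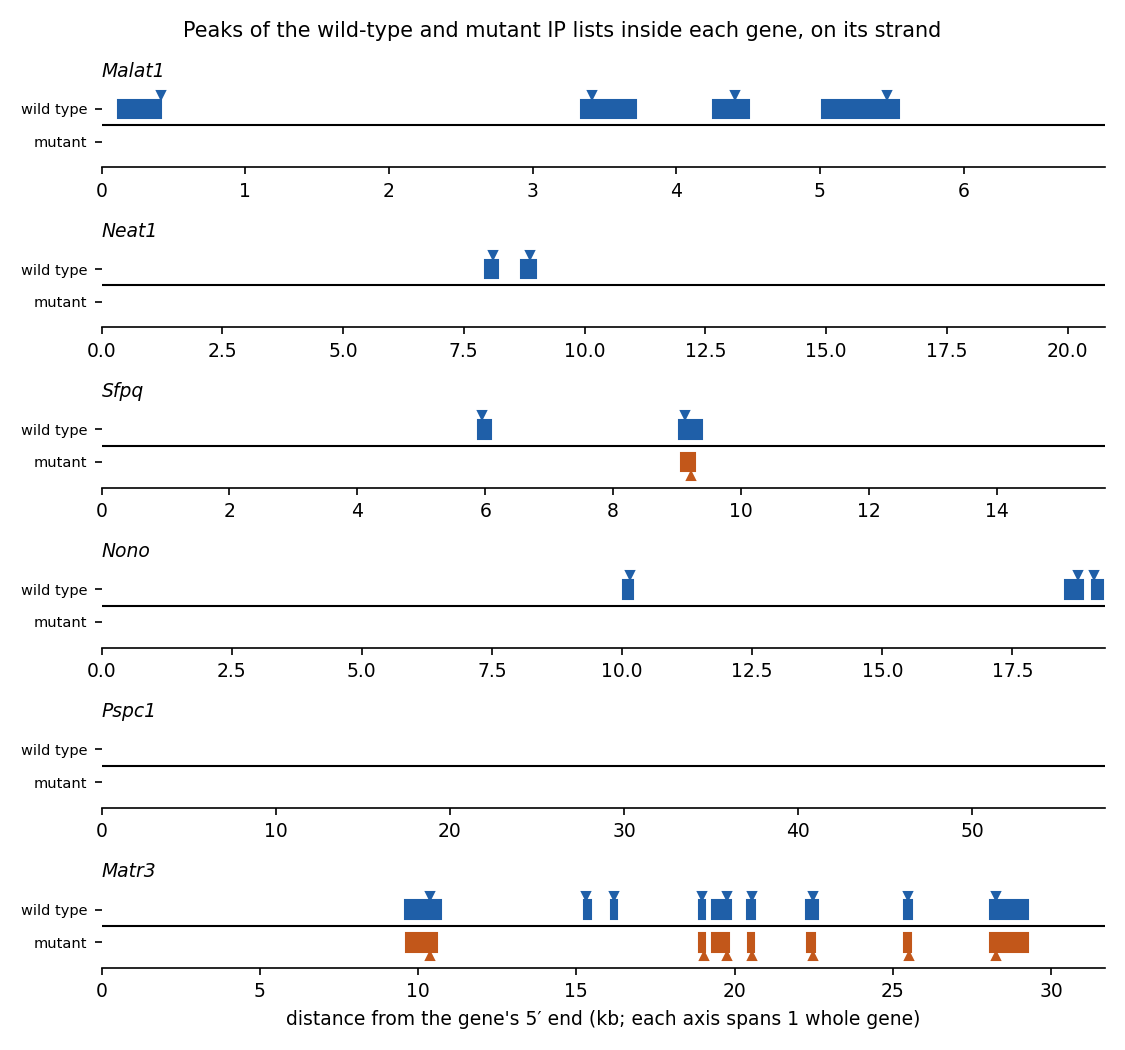
Peaks of the wild-type list (blue, above the line) and of the mutant list (orange, below) inside each gene on its strand, drawn to scale as distance from the gene's 5′ end in kb, with a separate scale for each gene; arrowheads mark summits. Malat1, Neat1 and Nono hold 4, 2 and 3 wild-type peaks and no mutant peak, Pspc1 holds none, and the 7 mutant peaks of Matr3 each lie on a wild-type peak.

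The other protein genes of paraspeckles stood, as a list, above all genes in both IPs by their median, with none tested. The shortest of them spans 6.26 kb, and genes of 5 kb or more had medians of −0.18 (wild type) and −0.42 (mutant). Beside those genes the list stood higher with the wild type and about level with the mutant. The part of span was not tested. Of 31 paraspeckle-associated protein genes, all in both tables, 19 had a log2 ratio above 0 with the wild type, and 7 did with the mutant. By the 2-fold rule 3 were at least 2-fold higher and 1 lower in the wild-type IP, where 8.59% and 23.3% of all genes were, and 27 lay between, with a median log2 ratio of 0.23. In the mutant IP 0 were higher and 4 lower, against 6.69% and 37.8% of all genes, with a median of −0.41. After centring on all genes these mutant counts became 2 higher and 2 lower. The 3 higher with the wild type were Taf15, a FET family RNA-binding protein gene (1.29 with the wild type and −0.50 with the mutant), Hnrnpf, a splicing regulator gene (1.27 and 0.26), and Nudt21, a cleavage factor subunit gene (1.09 and −0.62). Nudt21 is named after its values were seen. Cpsf6, the gene of its partner in the same cleavage factor, had 0.11 and 0.57, and Hnrnpk had 0.68 and 0.44. At the low end were the cold-inducible RNA-binding protein genes Cirbp (−1.03 and −1.57) and Rbm3 (−0.65 and −1.97), and Ahdc1 had −0.91 and −0.23. Wild-type peaks lay in 18 of the 31 genes and mutant peaks in 8, beside 25.1% and 18.6% of all genes. Those shares are not matched for level and span, on which holding a peak depends. Matr3, at 1.77, exceeded every gene of this list with the wild type, and at 0.95 with the mutant, where the highest of the list was Cpsf6.

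Nuclear speckles are the compartment of Malat1, and of 23 genes of speckle proteins 1 was at least 2-fold higher and 3 lower in the wild-type IP, with a median of −0.16 (8.59% and 23.3% of all genes). In the mutant IP 0 were higher and 9 lower, with a median of −0.88. The 9 lower genes are close to the share of all genes, 37.8%, and after centring the counts became 3 higher and 1 lower. The splicing factor gene Srsf3 was the 1 higher gene with the wild type, with 1.27, and had −0.66 with the mutant. Son, which encodes a large speckle scaffold protein, had 0.45 and 0.67, and Sart1, a spliceosome recruitment factor gene, had 0.29 and 0.64. Pnn, which encodes pinin, had −1.17 and −1.55, Srsf4 had −1.24 and −1.07, and Luc7l3 had −0.89 and −2.04. Wild-type peaks lay in 14 of the 23 genes (25.1% of all genes) and mutant peaks in 8 (18.6% of all genes), again without a match for level and span.

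Of 30 other long noncoding RNAs 22 were in both tables. In the wild-type IP 2 were at least 2-fold higher and 5 lower, with a median of −0.48, and in the mutant IP 1 was higher and 17 lower, with a median of −2.09. Lower in the mutant IP were also 37.8% of all genes and 57.4% of the lincRNA class. In 17 of the 22 the difference in favour of the wild type was at least 1, beside 26.1% of all genes and 160 of the 366 genes of the lincRNA class. Oip5os1, also known as Cyrano, was enriched in both, with 1.18 and 1.17, and held 4 wild-type and 6 mutant peaks. Tug1 had 1.09 and 0.36 and held 5 and 2 peaks. The small nucleolar RNA hosts Snhg1 (−1.27 and −2.50), Snhg12 (−0.91 and −3.52) and Snhg15 (−1.57 and −2.35) were lower in the mutant IP, as was Epb41l4aos (−0.88 and −3.41). The medians of all 3 lists are set beside −0.28 with the wild type and −0.59 with the mutant over all genes. Of the 22 RNAs, 12 span under 5 kb, with medians of −0.90 (wild type) and −2.70 (mutant), and over all 2809 genes with such spans the medians were −0.82 and −1.70. The other 10 span 5 kb or more, introns included, as Malat1 and Neat1 do. They had medians of 0.31 and −1.23, beside −0.18 and −0.42 over 10669 genes. Malat1, at −2.07 with the mutant, and Neat1, at −1.39, lay below the median of these 10 genes of longer span. Against the whole list Malat1 lay at about the median and Neat1 above it. The part of span in these counts was not tested.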

How the data were processed

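The submitters' processing notes name HISAT2 (2.1.0), MACS2 (2.2.7.1), HOMER (4.11.1), bedtools and the builds mm10 and GRCm38; libraries were stranded, per the labels' protocols. The authors deposited 1 level per gene and library, read here as FPKM: column sums of 207301 to 321238 differ from those of TPM, and in 245 pseudogenes the evidence per level behind the authors' p-value followed length (Spearman rho 0.953 across genes). Read totals were not used here, so the depth is unknown and levels carry no interval. The authors' deposited log2 column matched log2((IP + 0.01)/(input + 0.01)) to within 1.57e-09; the test behind the authors' p-value and q-value is not stated. The authors' 2 peak lists, 1 per IP and each strand called apart, hold a display score, a fold, −log10 p-value and q-value and the summit offset; whether the input was the control is not stated.

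Ratios, counts, ranks and positions were computed with Python 3.11.15 and pandas 2.3.3, and the functions were checked on simulated data. Symbols come from the mutant table, RefSeq coordinates from GRCm38.p6. Named genes were the members; up to 2 highest and lowest per list and IP with a level of at least 5; 3 nearest profiles among genes reaching a level of 10, without predicted genes and pseudogenes; genes overlapping or next to members; Lin28b, Actb and Gapdh. The ratios of Actb were −1.02 (wild type) and −1.64 (mutant), those of Gapdh −0.98 and −1.60. Where a symbol had 2 models, the one with the higher level entered a list. The members and lists were chosen with earlier results of these data known. Alternatives were other pseudocounts, centrings, thresholds, peak filters and overlap rules.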

Additional observations from a re-analysis of the deposited data

How the results depend on the processing

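No paired analysis was possible because each group held 1 library, and for the same reason none could be left out. Of 242 alternative values, 197 were classed as the same and 35 as moved. Moved means a change of sign short of the threshold, a shift of about 1.5-fold or more, or a count to or from 0. A reversed call could not arise for counts of peaks or genes, nor from a changed threshold or the q-value, and none arose elsewhere. Of the 102 that concern the ratios of members or their differences, 8 brought a value past the threshold, 2 brought one below it and 15 moved. After centring on all genes or on genes with a level of at least 10, the wild-type ratio became 0.19 or 0.080 for Malat1, 0.18 or 0.067 for Sfpq and 0.28 or 0.17 for Nono. In the mutant it became −0.78 or −0.92 for Neat1, which no longer passed 2-fold, 0.40 or 0.27 for Sfpq, and 1.55 or 1.42 for Matr3, which then passed. With all genes as the centre the mutant ratio was −1.46 for Malat1, −0.13 for Nono and −0.11 for Pspc1. The difference between constructs turned to −0.22 or −0.20 for Sfpq and to −0.069 or −0.043 for Pspc1. At a threshold of 1.5-fold, Nono (−0.73), Pspc1 (−0.72) and Matr3 (0.95) passed with the mutant, as did the differences of Neat1 (0.83), Nono (0.72) and Matr3 (0.82). Pseudocounts of 0.1 or 1 moved no member across the threshold. The authors' q-value could not do so, since it was below 0.05 for every member in both comparisons.

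Centred on all genes, paraspeckle-associated genes had 0 lower with the wild type and, with the mutant, 2 higher, 2 lower and a median of 0.19. Speckle genes had a median of 0.13 and 0 lower with the wild type, and with the mutant 3 higher, 1 lower and a median of −0.27. Other long noncoding RNAs had 4 higher and 2 lower with the wild type and a median of −1.49 with the mutant. With a pseudocount of 1, paraspeckle-associated genes had 0 lower with the wild type. Among peaks with an authors' fold of at least 4, Malat1, Neat1, Sfpq and Nono held 0 with the wild type, Sfpq held 0 with the mutant, and Matr3 held 2 there. With the mutant list shortened to 11912 peaks, Sfpq held 0 mutant peaks. The centring follows from its own construction; the cause of the other changes was not tested.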
